A study of Mus musculus with 6 samples.

Results

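A set of 10 genes for alpha- and beta-tubulin, the paired subunits of microtubules, was followed in mouse retina of Cyfip2 conditional knockouts and controls (Cyfip2 is a regulator of actin). The genes were taken by symbol: Tuba1a, Tuba1b, Tuba1c and Tuba4a for alpha-tubulin, and Tubb2a, Tubb2b, Tubb3, Tubb4a, Tubb4b and Tubb5 for beta-tubulin. All 10 were found once among the 24346 gene symbols of each library, and all 10 were among the 13215 tested genes, those averaging 1 FPKM or more (fragments per kilobase, a unit that corrects for transcript length and library size). The data comprised 6 libraries of polyadenylated RNA from retina. There were 3 from mice labelled Cyfip2 CKO, a conditional knockout, and 3 from mice labelled Cyfip2 WT. For neither group is a Cre driver, an allele design, a strain, a sex or an age given in the sources used here. The labels do not say whether the libraries of a group came from separate animals, so p-values measure only the spread between these libraries, which may be technical.

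Alpha- and beta-tubulin form heterodimers that polymerise into microtubules, the tracks for axonal transport, the scaffold of dendrites and the core of the photoreceptor cilium. Mammals make each subunit from several genes, whose products (isotypes) differ mostly in the acidic tail at the carboxyl end, where motors and modifying enzymes act. Tubb3 is used as a marker of neurons and, in retinal sections, of ganglion cells, while Tubb5 and Tuba1b are expressed in many cell types. Cells also tune the level of tubulin mRNA to the amount of free subunits: the adaptor Ttc5 reads the first residues of the nascent chain on the ribosome and triggers decay of the message.

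The start of the coding sequence is shown for the 10 genes because it encodes the residues that the sensor reads. The sequences are from GENCODE M21 transcripts on GRCm38, as the first 30 coding bases in the sense direction, with codons 2 to 4 in capitals.
Tuba1a: atgCGTGAGTGCatctccatccatgttggc
Tuba1b: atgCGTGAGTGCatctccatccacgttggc
Tuba1c: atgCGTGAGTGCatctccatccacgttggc
Tuba4a: atgCGCGAGTGCatttcagtccatgtgggg
Tubb2a: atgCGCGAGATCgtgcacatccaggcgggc
Tubb2b: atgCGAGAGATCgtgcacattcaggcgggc
Tubb3: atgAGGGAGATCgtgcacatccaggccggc
Tubb4a: atgCGGGAAATCgtgcacctgcaagccggt
Tubb4b: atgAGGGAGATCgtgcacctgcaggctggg
Tubb5: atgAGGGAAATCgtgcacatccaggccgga
The 4 alpha genes end the capital stretch with TGC and the 6 beta genes with ATC. The codons before that vary between genes but encode the same residues, arginine and glutamate, in all 10. Tuba1b and Tuba1c have the same 30 bases.

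The tails are shown for the near-identical pair Tubb2a and Tubb2b and for Tubb3, since they bear on which genes can be told apart by sequence. Each line holds the last 60 coding bases before the stop codon, and capitals mark the bases that differ within the pair.
Tubb2a: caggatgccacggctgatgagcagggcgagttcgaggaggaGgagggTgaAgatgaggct
Tubb2b: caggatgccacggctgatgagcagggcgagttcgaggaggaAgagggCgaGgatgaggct
Tubb3: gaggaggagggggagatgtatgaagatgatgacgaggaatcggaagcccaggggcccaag
Tubb2a and Tubb2b differ at 3 of these 60 bases, none of which changes the encoded residue. Tubb3 has no such near-copy: its transcript shared no stretch of 50 bases with that of another gene.

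On GRCm38, 5 of the genes lie in 2 clusters. Tuba1a (chr15:98949837-98953703, minus strand), Tuba1b (chr15:98931425-98934565, minus strand) and Tuba1c (chr15:99029891-99038110, plus strand) lie together, with 15271 bp between the first pair. Tubb2a (chr13:34074274-34078007) and Tubb2b (chr13:34126748-34130466) lie on the minus strand, 48740 bp apart. The other 5 are not clustered: Tuba4a at chr1:75214228-75219865 (minus), Tubb3 at chr8:123411424-123422015 (plus), Tubb4b at chr2:25222160-25224702 (minus), Tubb5 at chr17:35833921-35838306 (minus) and Tubb4a at chr17:57080066-57087782 (minus). All 10 have 4 exons in the transcript with the longest coding sequence, and that sequence spans 1335 to 1356 bases with its stop codon.

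Coding sequences within a family were 84.7% to 98.3% identical for the alpha genes and 81.2% to 96.5% for the beta genes, against 52.3% to 55.1% between an alpha and a beta gene. Tuba1a and Tuba1b shared 98.3% and Tubb2a and Tubb2b 96.5%. This similarity bears on how reads are assigned, and the sources used here do not say how reads that fit several genes were counted. Of the 50-base stretches of each transcript, 72.9% for Tuba1a, 73.8% for Tuba1b and 61.0% for Tuba1c also occurred, letter for letter, in a transcript of another gene, pseudogenes included. That share was 49.6% for Tubb2a, 39.3% for Tubb2b and 50.9% for Tubb4b, the last shared mostly with its pseudogene Tubb4b-ps1 and with no other member. It was 0% for Tubb3, 0.184% for Tubb4a, 0.115% for Tubb5 and 1.1% for Tuba4a. Levels of Tuba1a, Tuba1b, Tuba1c, Tubb2a, Tubb2b and Tubb4b are therefore uncertain as far as the counting could split shared reads, while those of Tubb3, Tubb4a, Tubb5 and Tuba4a rest on transcripts that share little or no sequence with others. On the opposite strand, Tuba4a overlaps Stk16 by 1379 bp, Tuba1b the antisense gene Gm41396 by 241 bp and Tubb4b Fam166a by 121 bp, and the use of strand in counting is not stated. On the same strand, the gene model Gm49450 overlaps Tuba1a by 3715 bp and Tuba1b by 2429 bp, and Gm20388 overlaps Tubb3 by 10592 bp, its whole span. The transcripts of Gm20388 and Tubb3 shared no stretch of 50 bases, so the overlap with Tubb3 is not one of spliced sequence.

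**Figure D1:**
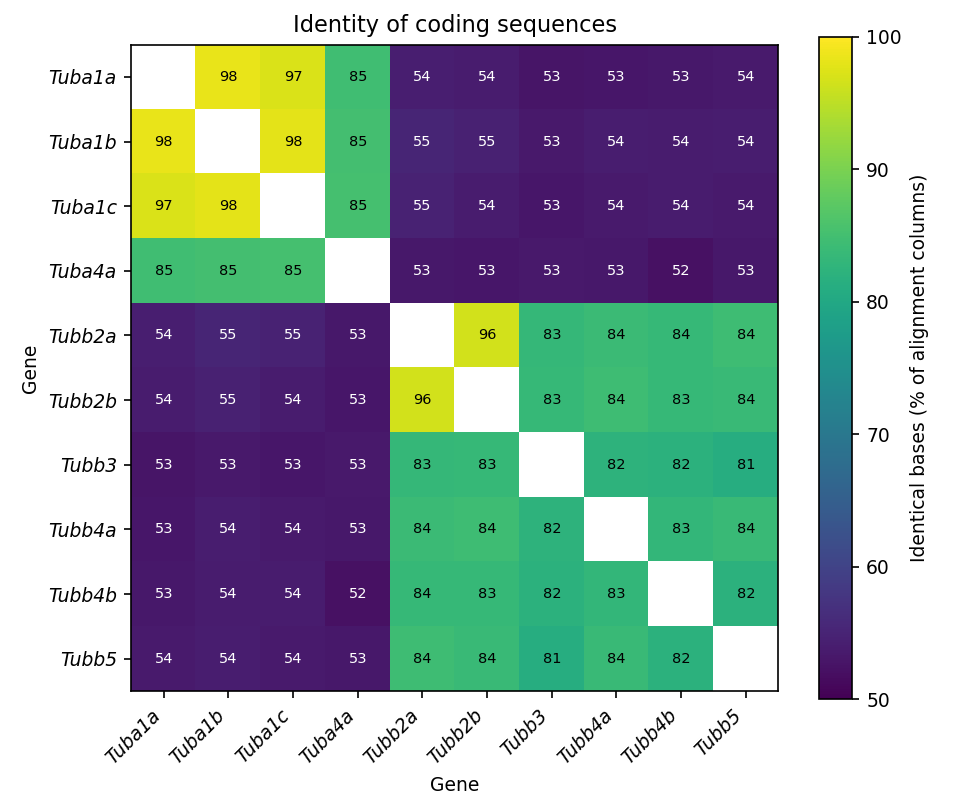
Identity between the coding sequences of the 10 tubulin genes, as the percentage of alignment columns with the same base (rows and columns are genes, colour and printed number give the percentage, the diagonal is blank). The alpha block, the beta block and the pairs above 96% (Tuba1a, Tuba1b and Tuba1c with each other, and Tubb2a with Tubb2b) stand out from the 52.3% to 55.1% between families.

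Cyfip2 itself was at 8.33, 10.2 and 11.2 FPKM in CKO 1 to 3 and at 35.5, 63.1 and 62.3 FPKM in WT 1 to 3 (log2 fold change -2.29, SE 0.21, limma adjusted p = 0.0239). Its lowest WT value was that of WT 1. No marker of the cell type lists given here was at 0 in all libraries. Lens markers (7 genes) summed to 223.8 FPKM in WT 2 and 79.8 FPKM in WT 3, against 25.6 to 42.7 FPKM in the other libraries. The microRNA gene Mir8104 was listed at 19268.5 FPKM in WT 3, at 2059 FPKM in CKO 1 and at 0 in the other libraries. Depth relative to WT 1, read from the steps between low values, was between 1 and 1.29, and absolute depth is unknown.

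The retina expressed the 10 genes over a 45.6-fold range of mean levels per transcript length, with Tuba1a at the top and Tuba1c at the bottom. Of the 10, 7 were above 100 FPKM in every library, as were 588 (4.45%) of the 13215 tested genes, whose median was 12.6 FPKM. Mean FPKM over all 6 libraries fell in the order Tuba1a (473.1), Tubb2a (251.7), Tubb5 (201.6), Tuba1b (166.3), Tubb4a (139.3), Tubb3 (133.8), Tubb4b (109.2), Tubb2b (47.7), Tuba4a (42.5) and Tuba1c (10.4). Neighbours in this order had separate ranges over the 6 libraries in 7 of 9 cases. The ranges overlapped for Tubb4a and Tubb3 (ratio of means 1.04, Tubb4a above Tubb3 in 5 libraries) and for Tubb2b and Tuba4a (1.12, Tubb2b above Tuba4a in 5 libraries).

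**Figure D2:**
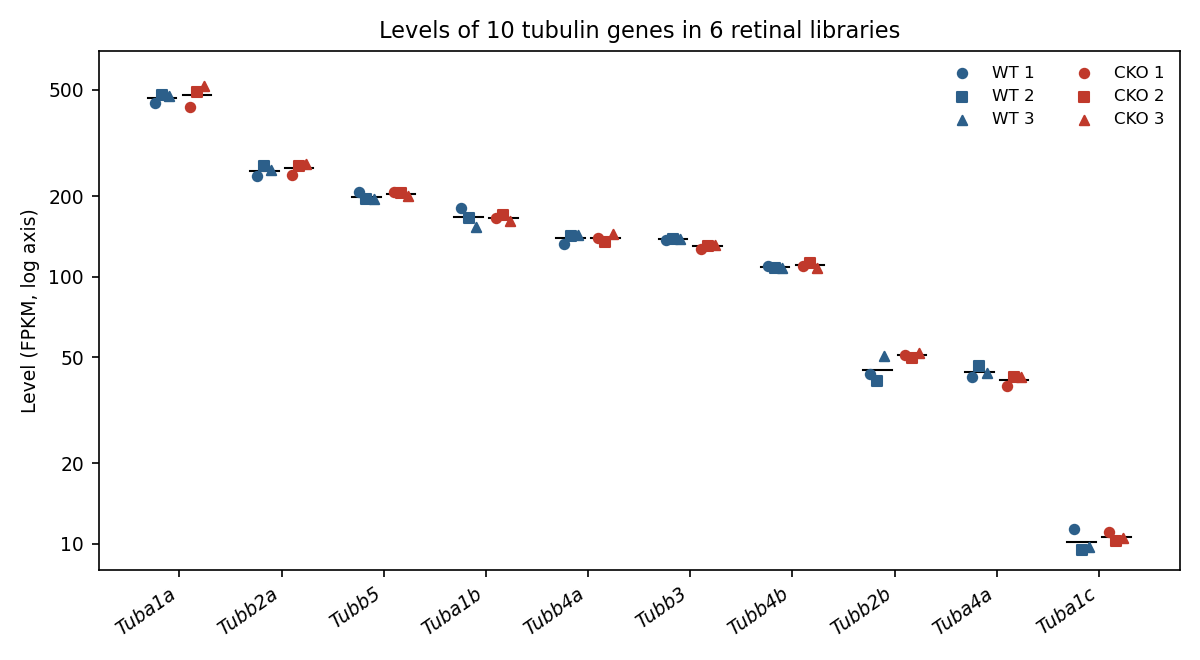
Level of each tubulin gene in FPKM on a log axis, ordered by mean, with 3 WT libraries (blue) and 3 CKO libraries (red) as separate points and a black line at each group mean. The group means have the same order in WT and CKO, from Tuba1a (473.1 FPKM over all libraries) to Tuba1c (10.4 FPKM), and only for Tubb3 are all CKO points below all WT points.

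No tubulin gene passed the threshold between CKO and WT retina (limma, 0 of 10 at an adjusted p under 0.05, against 3 of 13215 genes, 0.0227%, with 0.0151% higher and 0.00757% lower). The gene called lower was the targeted gene Cyfip2 itself. At an unadjusted p under 0.05 there were 2 of 10, against 7.88% of all genes tested: Tubb2b higher in CKO (3.52% of all genes in that direction) and Tubb3 lower (4.36% in that direction). Log2 fold changes on the log2(FPKM + 1) scale lay between -0.10 and 0.18, with 7 above 0 and 3 below 0 and a median of 0.025, where the median of all genes tested was -0.0016. The median size of the change, without its sign, was 0.035 for the 10 genes and 0.069 for all genes. Most of the 10 stand at far higher levels than most tested genes, and no set matched for level was compared. In 1 of the 10 (Tubb3, lower in CKO) the groups did not overlap, against 13.9% of all genes (6.96% higher and 6.95% lower). The 95% confidence intervals of the 10 changes reached 0.088 to 0.19 (log2) to each side.

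**Figure D3:**
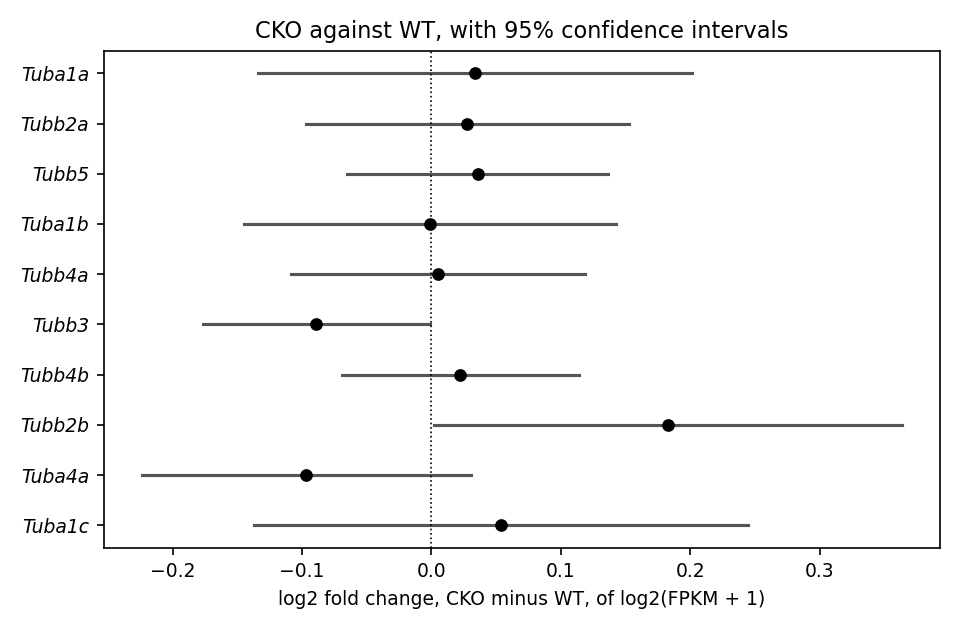
Log2 fold change of each tubulin gene, CKO minus WT, on the log2(FPKM + 1) scale (points) with 95% confidence intervals from limma (lines). The intervals of Tubb2b (0.0023 to 0.36) and Tubb3 (-0.18 to -0.0013) end close to 0, and the other 8 include 0.

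Among the alpha genes, Tuba1a, the main alpha isotype of neurons and a gene mutated in lissencephaly, was at 429.6, 491.9 and 516.0 FPKM in CKO 1 to 3 and at 445.1, 479.95 and 475.9 FPKM in WT 1 to 3. The CKO group held both the lowest and the highest library, and the groups overlapped. Means were 479.2 ± 44.6 and 466.98 ± 19.1 FPKM (SD, n = 3 each), and the log2 fold change of Tuba1a was 0.03 (SE 0.07, limma adjusted p = 0.943). Tuba1b, an isotype found in most cells, was at 166.01, 170.1 and 162.1 FPKM in the CKO libraries and 180.97, 165.04 and 153.6 FPKM in WT. All CKO values fell within the WT range (log2 fold change -0.0014, SE 0.06, limma adjusted p = 0.996).

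Tuba4a is expressed in mature neurons, and its gene has been linked to amyotrophic lateral sclerosis. It was at 39.01, 41.97 and 42.3 FPKM in the CKO libraries and 42.1, 46.2 and 43.7 FPKM in WT. The groups met only at 42 FPKM, where CKO 3 exceeded WT 1. Its log2 fold change was the lowest of the 10, at -0.10 (SE 0.06, limma unadjusted p = 0.118, adjusted p = 0.736). Tuba1c, the scarcest member, lay between 9.48 and 11.4 FPKM, with WT 1 the highest library and WT 2 the lowest (0.05, SE 0.08, limma adjusted p = 0.920).

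Tubb3, the neuronal beta isotype, was lower in each CKO library than in each WT library, by a small amount that did not pass the threshold. It was at 127.2, 130.02 and 131.6 FPKM in the CKO libraries and 137.1, 138.5 and 138.1 FPKM in WT. The gap between the highest CKO and the lowest WT library was wider than the spread within either group. Means were 129.6 ± 2.22 and 137.9 ± 0.701 FPKM (SD, n = 3 each), so that the CKO mean was 0.940 of the WT mean. On the log2(FPKM + 1) scale CKO minus WT was -0.09 (SE 0.04, interval at 95% from -0.18 to -0.0013, limma unadjusted p = 0.0474, adjusted p = 0.625). With quantile normalization the difference was -0.06 (limma unadjusted p = 0.164), and leaving out any 1 library gave -0.10 to -0.08 with no unadjusted p under 0.05. As a share of the summed beta genes, Tubb3 made up 14.5% to 14.6% in CKO and 15.6% to 15.8% in WT.

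Summed ganglion cell markers, like Tubb3, were lower in each CKO library than in each WT library. Without the neurofilament genes among them, the sums overlapped between the groups. In bulk retina, fewer cells of a type and less RNA per cell cannot be told apart. The 11 markers (Rbpms, Pou4f1, Pou4f2, Pou4f3, Sncg, Thy1, Nefl, Nefm, Nefh, Slc17a6 and Isl2) summed to 705.7 to 732.2 FPKM in the CKO libraries and 773.97 to 839.5 FPKM in WT. None passed the threshold, 10 had fold changes below 0, and 5 had an unadjusted p under 0.05, all lower (4.36% of all genes were), with a median log2 fold change of -0.17. The smallest p values were those of the neurofilament genes Nefm (log2 fold change -0.30), Nefh (-0.24) and Nefl (-0.26), followed by the transcription factor Pou4f1 (-0.19). The exception above 0 was Sncg at 0.0065. Sums weigh genes by their level, and the largest fall in FPKM was that of Nefl (mean 221.1 in CKO, 266.0 in WT). Groups did not overlap for 7 of the 11 markers, all lower (6.95% of all genes were). They overlapped for Rbpms, Pou4f3, Sncg and Isl2. Summed markers were also lower in each CKO library for cones (635.2 to 698.8 against 701.7 to 786.4 FPKM in WT), bipolar cells (774.3 to 796.7 against 838.8 to 873.4 FPKM) and horizontal cells (89.3 to 90.6 against 93.5 to 105.8 FPKM). In these lists, fold changes were below 0 for 8 of 8 cone, 6 of 8 bipolar and 5 of 6 horizontal markers. Those above 0 were Grm6 (0.06), Prkca (6.0e-05) and Onecut1 (0.22). A limma unadjusted p under 0.05 was found for 4 cone, 3 bipolar and 3 horizontal markers, all lower (4.36% of all genes were). Groups did not overlap for 3 cone, 4 bipolar and 3 horizontal markers, all lower (6.95% of all genes were). Calb1 (mean 26.6 FPKM in CKO, 33.8 FPKM in WT) had the largest fall in FPKM of the horizontal markers, and without it their sums overlapped between the groups. Summed markers were higher in each CKO library for amacrine cells (459.4 to 475.4 against 403.1 to 427.4 FPKM), with 7 of 8 above 0 and Chat at -0.05. Of these 8, 6 had a limma unadjusted p under 0.05, all higher (3.52% of all genes were). Groups did not overlap for 6 of the 8, all higher (6.96% of all genes were). In these 4 lists, too, no marker passed the threshold. The sums overlapped between groups for Müller glia (1657 to 1825 FPKM over all libraries), microglia (31.8 to 48.2), endothelium and pericytes (123.1 to 136.3), oligodendrocytes (23.6 to 27.9), pigment epithelium (5.55 to 13.1) and lens. The part of these cell types in the Tubb3 values was not tested.

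Tubb2b, a beta isotype of developing neurons whose mutation causes polymicrogyria, had the highest fold change of the 10. It was at 50.8, 49.4 and 51.98 FPKM in the CKO libraries and 43.1, 40.6 and 50.5 FPKM in WT. WT 3 lay within the CKO range and the other 2 WT libraries lay below it, so the groups overlapped. Means were 50.7 ± 1.28 and 44.7 ± 5.17 FPKM (SD, n = 3 each), a ratio of 1.13. The log2 fold change was 0.18 (SE 0.08, limma unadjusted p = 0.0478, adjusted p = 0.625). It was 0.27 without WT 3 (limma unadjusted p = 0.0015, adjusted p = 0.417) and 0.12 without WT 2 (unadjusted p = 0.162, adjusted p = 0.776), so its size depended on which WT library was included.

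Tubb2a, the neighbour and closest relative of Tubb2b, was at 240.4, 258.2 and 263.8 FPKM in the CKO libraries and 237.1, 259.5 and 251.2 FPKM in WT. The groups overlapped throughout (log2 fold change 0.03, SE 0.05, limma adjusted p = 0.940). The ratio of Tubb2b to Tubb2a was 0.211, 0.191 and 0.197 in CKO and 0.182, 0.157 and 0.201 in WT. WT 3 again stood with the CKO libraries. Summed over both genes, the CKO libraries reached 304.9 ± 12.5 FPKM and the WT libraries 294.02 ± 12.05 FPKM, with overlapping groups.

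The remaining beta genes were close between the groups. Tubb5, the widespread beta isotype, lay between 194.6 and 207.8 FPKM (log2 fold change 0.04, 95% confidence interval -0.06 to 0.14). Tubb4a, an isotype of neurons and oligodendrocytes, lay between 131.97 and 143.9 FPKM (0.0051, interval -0.11 to 0.12). Tubb4b, which is found in cilia and whose mutation causes deafness with retinal dystrophy, lay between 107.5 and 112.7 FPKM (0.02, interval -0.07 to 0.11). It was the steadiest of the 10, with a coefficient of variation of 1.83% over the 6 libraries. The most variable was Tubb2b at 9.84%, and the median over the 10 genes was 4.88%, beside 6.15% for the 7609 tested genes with a mean above 10 FPKM. That wider set holds many genes at lower levels than most of the 10, and no set matched for level was compared.

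Summed over all 10 genes, tubulin stood at 1521, 1604 and 1629.7 FPKM in CKO 1 to 3 and at 1546, 1583 and 1569 FPKM in WT 1 to 3. The CKO values enclosed the WT values, and the ratio of means was 1.01. The ratio of summed alpha to summed beta was 0.784 ± 0.041 in CKO and 0.783 ± 0.012 in WT (SD, n = 3 each), with CKO 1 lowest at 0.737 and CKO 3 highest at 0.813. Messenger levels do not give protein levels, and these ratios are of transcripts. Tuba1a made up 65.5% to 70.6% of the alpha sum, Tuba1b 22.2% to 26.6%, Tuba4a 5.78% to 6.59% and Tuba1c 1.35% to 1.71%. The beta sum was spread more evenly, with Tubb2a at 27.4% to 29.4%, Tubb5 at 22.05% to 23.9%, Tubb4a at 15.2% to 16.2%, Tubb3 at 14.5% to 15.8%, Tubb4b at 11.99% to 12.7% and Tubb2b at 4.60% to 5.80%. The share of Tuba4a in the alpha sum was 5.78% to 6.04% in CKO and 6.19% to 6.59% in WT. For this share and that of Tubb3, and for no other of the 10, the groups did not overlap. Among single genes 13.9% did not overlap, and no such background was computed for shares. The FPKM values of Tuba4a itself overlapped between the groups.

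**Figure D4:**
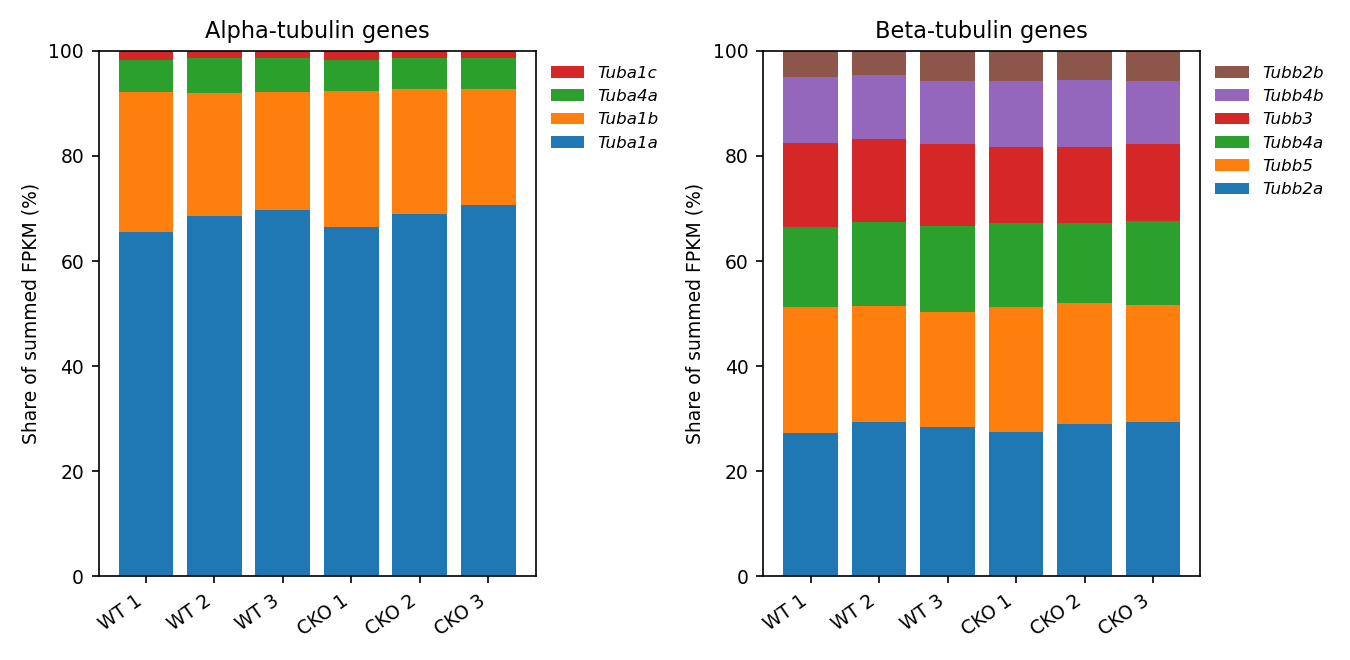
Share of each gene in the summed FPKM of its family, in percent, as stacked bars for each of the 6 libraries (alpha genes left, beta genes right). Tuba1a takes 65.5% to 70.6% of the alpha sum in every library, while no beta gene exceeds 29.4% of the beta sum.

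The libraries also differed among themselves without regard to group. Tuba1a and Tubb2a were both lowest in CKO 1 and WT 1: Tuba1a lay 0.14 and 0.09 (log2) below its mean there, and Tubb2a 0.06 and 0.09. Tuba1c was higher in those 2 libraries than in the others, by 0.08 in CKO 1 and 0.12 in WT 1 above its mean, and so was Tubb5, by 0.04 in both. These 4 genes were singled out after their values were seen. Levels over the 6 libraries most like the summed tubulin level were those of Cbx5 (Pearson's r = 0.995), Ext2 (0.985), Neil1 (0.984), Ppa2 (0.981) and Pcdhb16 (0.979), the highest of 13205 genes compared. These values describe a ranking over 6 points in a large search and carry no test.

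**Figure D5:**
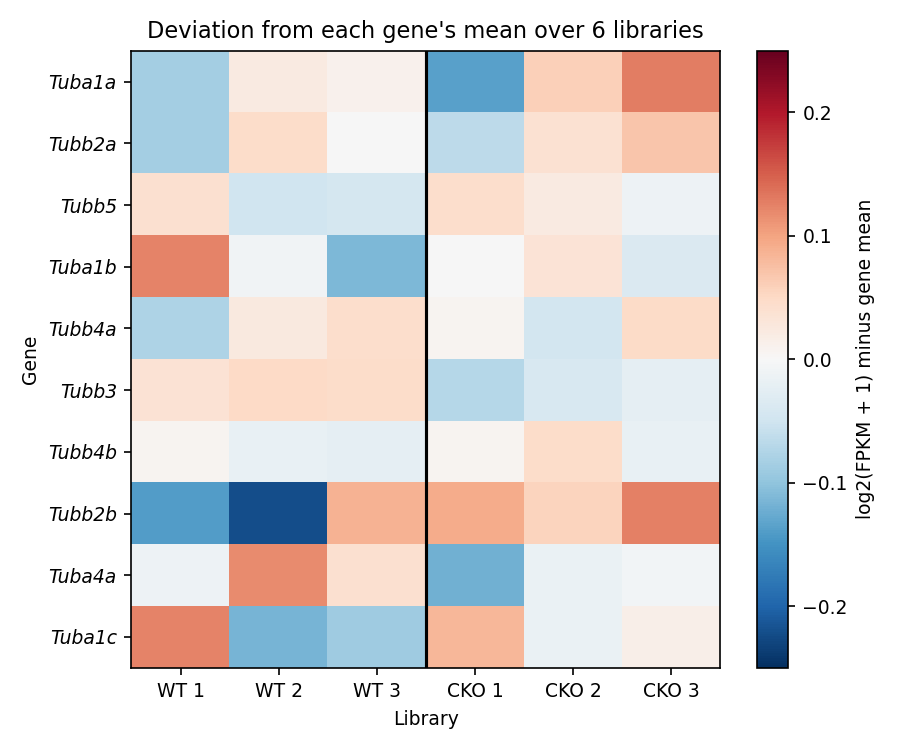
Deviation of each tubulin gene from its own mean over the 6 libraries, as the difference in log2(FPKM + 1) (colour, red above and blue below the mean, black line between WT and CKO). Only Tubb3 is above its mean in all WT libraries and below it in all CKO libraries, and WT 2 is the lowest library for Tubb2b, at -0.22.

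Of 10 further tubulin genes, 6 passed the filter on low values and none differed past the threshold (limma, 0 of 6). At an unadjusted p under 0.05 there were 0 of 6, against 7.88% of all genes tested. Tubg1 and Tubg2 encode gamma-tubulin, which seeds new microtubules. Tubg1 was at 24.3 ± 1.71 FPKM in the CKO libraries and 23.6 ± 2.66 FPKM in the WT libraries (SD, n = 3 each), and Tubg2 at 15.3 ± 0.894 and 14.1 ± 0.517 FPKM with groups that did not overlap (limma adjusted p = 0.758). Tube1 and Tubd1, the epsilon- and delta-tubulins of centrioles, were at 10.1 and 2.12 FPKM in the CKO libraries and 10.3 and 2.10 FPKM in WT. The minor isotypes were scarce: Tuba8 stood at 3.57 ± 0.184 against 4.23 ± 0.467 FPKM with groups that did not overlap (limma adjusted p = 0.699) and Tubb6 at 2.53 ± 0.448 against 2.89 ± 0.519 FPKM. Of the 6 tested, 1 was higher (Tubg2) and 1 lower (Tuba8) without overlap, against 6.96% and 6.95% of all genes. Tuba3a, a testis isotype, and Tubb1, the platelet isotype, were listed at 0 in all libraries, and Tuba3b and Tubal3 did not exceed 0.0859 FPKM.

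Genes that fold, modify, nucleate and bind tubulin showed no member past the threshold either. Of 21 folding genes, which encode the chaperonin, prefoldin and the tubulin cofactors, the fold change was above 0 for 10 and below 0 for 11. The median was -0.02, and none had an unadjusted p under 0.05, against 7.88% of all genes tested. The chaperonin subunit Cct3 was at 78.1 ± 1.22 FPKM in the CKO libraries and 73.4 ± 1.02 FPKM in the WT libraries (SD, n = 3 each), and Cct8 lay the other way at 67.7 ± 3.01 against 71.8 ± 0.931 FPKM. The prefoldin subunit Vbp1 (59.8 against 63.96 FPKM) and Cct4 (63.8 against 69.5 FPKM) were the other 2 of the 4 genes with the smallest p values in this list. Groups did not overlap for 1 of the 21 higher (Cct3) and 2 lower (Cct8 and Vbp1), against 6.96% and 6.95% of all genes. In the list for acetylation and tyrosination, 6 of 7 genes were tested, 4 above and 2 below 0 (median 0.04), with the deacetylase Hdac6 at 25.8 ± 0.915 against 24.6 ± 0.201 FPKM and the tyrosine ligase Ttl at 4.48 against 4.03 FPKM. Only for Hdac6 did the groups not overlap (1 of 6, against 6.96% of all genes in that direction). Of the sensor pathway of tubulin mRNA, Ttc5 was at 45.5 ± 1.59 against 48.2 ± 3.89 FPKM and Scaper at 12.9 ± 0.793 against 12.2 ± 0.506 FPKM, with fold changes on either side of 0.

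Of the 8 genes of the gamma-tubulin ring complex, the fold change was above 0 for 5 and below 0 for 3 (median 0.02). Tubgcp4, a subunit of the ring, was at 9.61 ± 0.345 FPKM in the CKO libraries and 8.50 ± 0.682 FPKM in the WT libraries (SD, n = 3 each), with groups that did not overlap (limma unadjusted p = 0.0687, adjusted p = 0.668). Tubgcp4 was the only such gene of this list (1 of 8, against 6.96% of all genes in that direction). Of 12 genes for proteins that bind microtubule ends or sever microtubules, 11 were tested, 6 above and 5 below 0 (median 0.02), and 1 (against 7.88% of all genes tested) had an unadjusted p under 0.05. It was Clasp2, which stabilises microtubule plus ends, at 61.2 ± 1.46 against 56.5 ± 1.19 FPKM (log2 fold change 0.11, SE 0.04, limma unadjusted p = 0.0301, adjusted p = 0.592). Clip1, second by p in this list, was at 17.8 ± 0.282 against 16.9 ± 0.512 FPKM. For Clasp2 and Clip1 the groups did not overlap (2 of 11, both higher, against 6.96% of all genes in that direction). Mapre2, an end-binding protein, was at 75.7 ± 2.89 against 72.4 ± 2.94 FPKM. Its relative Mapre1 lay the other way at 21.97 ± 0.540 against 23.1 ± 0.787 FPKM.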

How the data were processed

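The authors deposited 1 FPKM value per gene symbol and library; the unit is that of Cufflinks 2.2.1, which the submitters' processing notes name beside TopHat2 2.0.13, Bowtie2 2.3.5.1, SAMtools 1.11 and mm10, and was also judged from the values. TRIzol extraction and a TruSeq stranded mRNA kit are named per the labels' protocols. For the annotation, the scaling between libraries, reads that fit several genes and strand in counting, the sources used here give no step. Dates stood in place of 27 symbols in WT 3, and the majority symbol of that line over the libraries was used. FPKM gives no read counts, so the replicate SD is the measure of precision.

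The scale was log2(FPKM + 1), which understates changes of low genes. Genes averaging 1 FPKM or more (13215) entered a fit in limma 3.58.1 in R 4.3.3 (eBayes with a variance trend, two-sided, no covariate, Benjamini-Hochberg adjustment over all tested genes at 0.05). A permutation test of 3 against 3 libraries cannot pass 0.05 and was not used. The fit was also run on simulated data with independent normal noise and variances taken from the fit. Such data meet its assumptions, so they do not show how well it suits these libraries. Positions and coding sequences came from GENCODE M21 on GRCm38, from the transcript with the longest coding sequence of each gene. Named were all 10 genes, the other tubulins, Cyfip2, up to 4 genes of smallest p in each related list, the 5 genes most like the summed level, and the cell type markers beside the result they touch. The values of 1 cell type list are not reported here. The members, lists and alternatives were chosen with earlier results of these data known.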

Additional observations from a re-analysis of the deposited data

How the results depend on the processing

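No tubulin gene passed the threshold in any of the 16 alternative fits, which changed the pseudocount, the filter on low values, the scaling, the variance model, the weights, the replicate block or left out 1 library. The adjusted p of Tubb3 stayed between 0.509 and 0.855 and that of Tubb2b between 0.417 and 0.849, while Tubb3 had an unadjusted p under 0.05 in 3 and Tubb2b in 9 of the 16. Signs turned only for genes near 0. With array weights, Tuba1b was at 0.011 and Tubb4a at -0.015. Leaving out 1 library gave -0.022 to 0.11 for Tuba1a, -0.058 to 0.0598 for Tuba1b, -0.0078 to 0.067 for Tubb2a and -0.032 to 0.029 for Tubb4a, with the sign turned without CKO 3 (Tuba1a, Tuba1b and Tubb4a) or without WT 1 (the same genes and Tubb2a). The median over all genes stayed within 0.0040 of 0. Over all genes, the count of higher genes was 2, 1 with the replicate block or without the variance trend, and 3 without a filter, with quantile normalization, robust eBayes or array weights; leaving out a library gave 1 (without WT 1 or WT 2) to 3. The count of lower genes was 1, Cyfip2 itself, in the main fit. It was 0 without a filter, without the variance trend or with robust eBayes. Leaving out a library gave 0 (without CKO 2, CKO 3 or WT 2) to 1. In each fit with 0, the targeted gene did not pass the threshold either. A gene that was not called is therefore not shown to be unchanged. The cause of these changes in count was not tested. Deviations of same-numbered libraries correlated across genes with r = 0.072, 0.0063 and 0.101. CKO 1 and CKO 3 were closest to the WT library of their own number and CKO 2 to WT 1 (0.036), so not every pair passed 0.1 and the numbers were not taken to pair the libraries. With the replicate block, no tubulin gene was called and limma gave adjusted p = 0.465 for Tubb2b and 0.524 for Tubb3. Summed tubulin in CKO over WT stayed between 0.998 and 1.03. Absolute depth is unknown, so no counting error could be given for single values.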
